A study of Mus musculus with 6 samples.

Results

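The genes described here are 5 steroid hormone receptors and 4 genes of the stress response, 9 of the 53801 genes in a table of RNA-seq read counts from the adult mouse brain. They were picked by symbol, as Nr3c1, Nr3c2, Esr1, Esr2, Pgr, Fkbp5, Sgk1, Tsc22d3 and Crhr1, under a rule that sets no threshold on a measured value, although earlier results of these data were known. All 9 passed the filter on low counts, a total of 10 or more across the 6 libraries, and so were among the 23975 genes tested. Of the 6 libraries, 3 came from Bahd1-WT mice (Bahd1+/+) and 3 from Bahd1-KO mice (Bahd1-/-), in which both copies of Bahd1, a gene for a chromatin-binding repressor protein, are inactivated throughout the body. All 6 mice were C57BL/6 adults of about 70 weeks, and each library was made from polyadenylated RNA of a whole sagittal hemisphere of 1 mouse. The study describes its mice as males and reports that many Bahd1-/- animals die around birth, so the adult mutants are survivors. In such bulk samples fewer cells of a type and less RNA per cell cannot be told apart.

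Steroid hormones cross the cell membrane and bind receptors that act as transcription factors. Corticosterone, the stress steroid of the mouse, binds the mineralocorticoid receptor tightly and the glucocorticoid receptor more loosely, so that the first is largely occupied at rest and the second mainly under stress. In the cytoplasm these receptors are held by Hsp90 and co-chaperones, and once bound to hormone they move to the nucleus and switch on genes that include Fkbp5, Sgk1 and Tsc22d3. Release of the steroid is started by corticotropin-releasing hormone, whose main brain receptor is Crhr1. Estrogen receptors alpha (Esr1) and beta (Esr2) and the progesterone receptor (Pgr) belong to the same protein family and are known in the brain for sexual behavior and neuroendocrine control, with high expression in parts of the hypothalamus.

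Sequences show how alike the receptors are and which of the genes carry a known receptor motif. Among the longest transcripts of the 5 receptors, the longest run of identical bases in any pair was 24 bases, between Nr3c2 and Pgr. It lay in coding sequence, in exon 4 of Nr3c2 (GRCm38, chr8:77155219-77155242, plus strand) and exon 3 of Pgr (chr9:8922616-8922639, plus strand). The Esr1 and Esr2 transcripts shared 17 coding bases, across exons 4 and 5 of Esr1 and exons 3 and 4 of Esr2. Shown, with the shared bases in capitals, are the longest run of any pair of receptors and the longest of the estrogen receptors, since only within such runs can a read not tell these genes apart.

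Nr3c2 and Pgr: TGTGCTGGAAGAAATGACTGCATT

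Esr1 and Esr2: AGAAGCATTCAAGGACA

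RefSeq promoter windows of GRCm38.p6 were found for 8 of the 9 genes, all but Nr3c1, and gave 16 windows of 250 bases upstream of a transcription start. The glucocorticoid response element, searched on both strands as GNACA and TGTNC with 3 bases between them, was in 1 of the 16 windows and in 0.387% of the 32851 windows of all genes. That window belongs to Sgk1 (chr10:21993640-21993889, plus strand), with the element 188 bases before the start, and it overlaps no annotated exon. The half-site AGAACA, which can overlap the element, was in 4 of the 16 windows, 3 of Sgk1 and 1 of Tsc22d3, and in 16.1% of all windows. In the Sgk1 window, capitals mark the element with the half-sites that overlap it, and 1 further half-site upstream.

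Sgk1: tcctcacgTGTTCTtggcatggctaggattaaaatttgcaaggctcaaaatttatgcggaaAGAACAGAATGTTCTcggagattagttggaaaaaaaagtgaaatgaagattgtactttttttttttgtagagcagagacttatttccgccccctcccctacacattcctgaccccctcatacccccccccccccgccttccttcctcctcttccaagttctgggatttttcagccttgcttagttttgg

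No window of the 8 genes held the estrogen response element (GGTCA and TGACC with 3 bases between them), found in 0.0639% of all windows, or the cAMP response element TGACGTCA, found in 1.55%. The windows of Crhr1 and Pgr are shown because these genes had the highest and the lowest fold change of the 9, with CpG dinucleotides in capitals. The window of Crhr1 (chr11:104132531-104132780, plus strand) had a GC content of 74.8% and 25 CpG dinucleotides. It ends upstream of the Crhr1 start at 104132855 in the gene annotation used here. That of Pgr (chr9:8899583-8899832, plus strand) had a GC content of 43.6% and 4 CpG dinucleotides, and the median of all windows was 52.4%. The windows of Fkbp5 (68%, 23 CpG) and Nr3c2 (68.4%, 17 CpG) were also GC-rich, at log2 fold changes of -0.17 and -0.21. That of Esr2 had 56.4% and 12 CpG, at 0.99. A relation of promoter GC content to fold change was not tested.

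Crhr1: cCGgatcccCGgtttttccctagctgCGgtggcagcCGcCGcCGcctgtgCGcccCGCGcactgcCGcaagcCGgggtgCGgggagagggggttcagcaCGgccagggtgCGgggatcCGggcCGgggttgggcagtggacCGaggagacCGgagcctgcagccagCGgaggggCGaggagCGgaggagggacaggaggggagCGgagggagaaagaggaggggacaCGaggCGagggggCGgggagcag

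Pgr: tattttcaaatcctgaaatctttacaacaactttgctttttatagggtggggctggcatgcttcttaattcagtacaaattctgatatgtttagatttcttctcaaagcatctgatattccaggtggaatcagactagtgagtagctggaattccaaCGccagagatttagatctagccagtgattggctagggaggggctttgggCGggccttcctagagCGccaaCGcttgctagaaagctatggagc

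The libraries held 42297150 to 93557948 counts, so that 3 counts, the lowest level considered measurable, stood for 0.0315 to 0.0690 CPM (counts scaled to a common library size by the TMM method). Bahd1 had 844 to 1383 counts in Bahd1-WT and 0 to 14 in Bahd1-KO libraries, as the labels require. All 8 neuron markers were detected in every library, with a summed level of 8455 to 9907 CPM in Bahd1-WT and 7200 to 9008 CPM in Bahd1-KO. Of these markers 2 (Tubb3 and Nefm) were higher and 2 (Syt1 and Map2) lower in all Bahd1-KO libraries, and 4 overlapped. The libraries differed in how strongly they favored GC-rich transcripts. The GC lean, the median centered log2 CPM of the GC-richest group of 10 groups of expressed genes minus that of the GC-poorest, was -1.22, -0.87 and -0.61 in Bahd1-WT replicates 2, 3 and 1 and -0.12, 0.73 and 2.13 in Bahd1-KO replicates 1, 3 and 2. Bahd1-KO replicate 2 stood farthest from the other libraries. Because genotype and GC lean moved together, the fold changes below are given from edgeR's quasi-likelihood test and again from the same test with an offset per library for GC content and length, called the GC and length offset. A library effect and a genotype effect that follows GC content cannot be told apart here, with or without the offset.

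None of the 9 genes passed the test at an adjusted p-value under 0.05, against 2 of all 23975 genes (0.00834%). At an unadjusted p-value under 0.05, 3 of the 9 genes passed, beside 31.8% of all genes tested. They were Crhr1 and Esr2, with higher levels in Bahd1-KO brains (19.9% of all genes), and Pgr, with a lower level (12% of all genes). At an adjusted p-value under 0.1 only Crhr1 passed, beside 19.5% of all genes. The CPM values of the genotypes did not overlap for 5 of the 9 genes (39.8% of all genes), 2 with Bahd1-KO above (20.6% of all genes) and 3 with Bahd1-KO below (19.3% of all genes). With the GC and length offset, only Esr2 remained without overlap, with Bahd1-KO above, beside 20.1% of all genes with Bahd1-KO above and 27.9% in either direction. The median log2 fold change of the 9 genes was -0.17 and that of all genes tested -0.06, and with the offset these medians were 0.07 and 0.09. The share of the receptors and stress genes with an unadjusted p-value under 0.05 was thus close to that of the whole table.

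**Figure D1:**
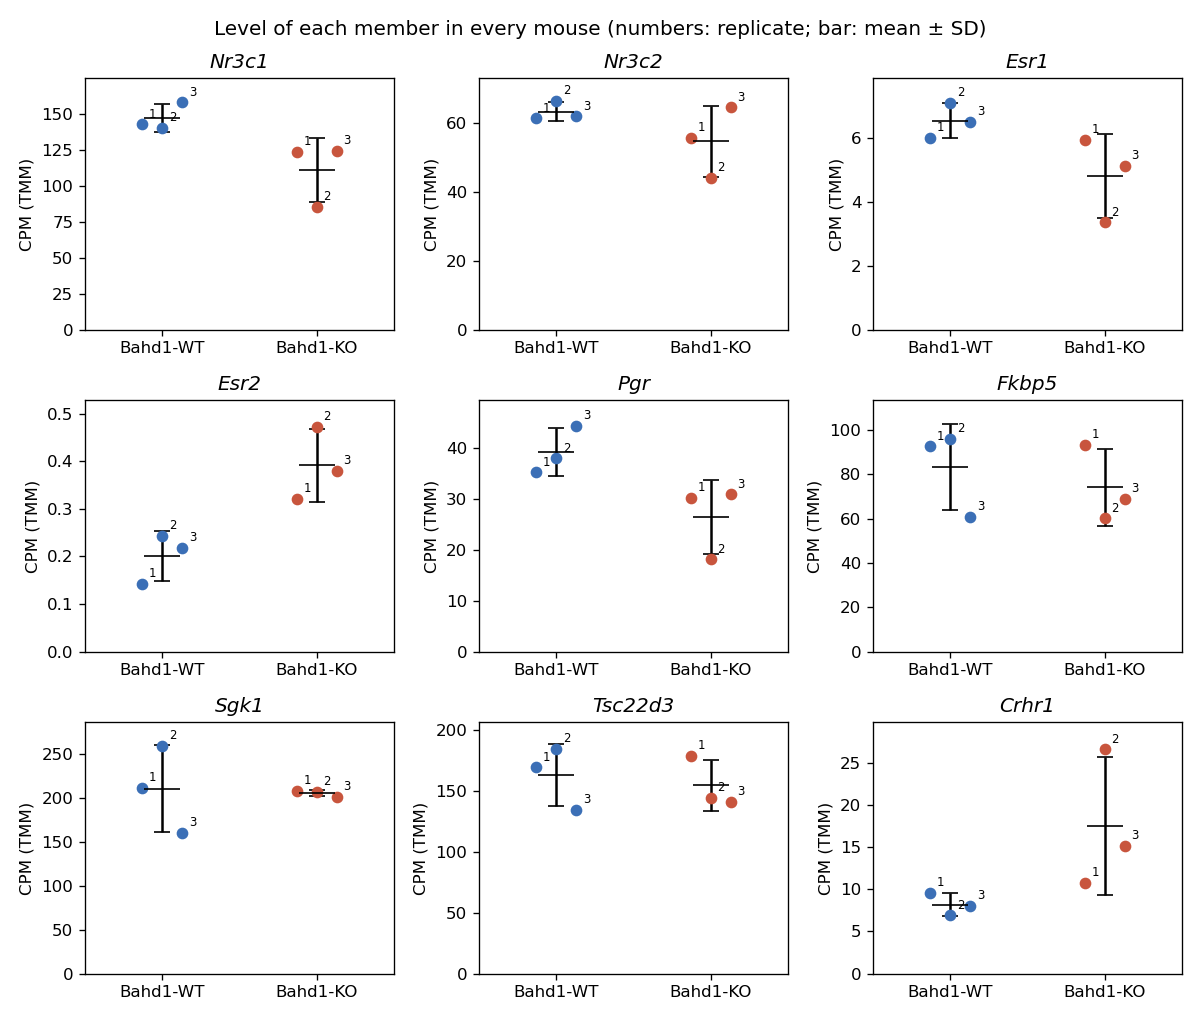
CPM (y axis) of each of the 9 genes in the 3 Bahd1-WT (blue) and 3 Bahd1-KO (red) mice, numbered by replicate, with the mean and SD as bars. Bahd1-KO replicate 2 is the lowest of its group for Nr3c1, Nr3c2, Esr1, Pgr and Fkbp5 and the highest for Esr2 and Crhr1.

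Of the corticosteroid receptors, Nr3c1 was lower in all 3 Bahd1-KO libraries, without passing the test, and Nr3c2 overlapped between genotypes. Nr3c1 (ENSMUSG00000024431, chromosome 18, 39410545 to 39519421, minus strand, GRCm38), the glucocorticoid receptor, was at 143, 140.2 and 158 CPM in Bahd1-WT replicates 1, 2 and 3 and at 123, 85.5 and 124 CPM in Bahd1-KO replicates 1, 2 and 3. The Bahd1-KO values all lay below the Bahd1-WT values, with replicate 2 lowest by far. The mean was 147 ± 9.62 CPM (SD, n = 3) in Bahd1-WT and 111 ± 22.1 CPM (n = 3) in Bahd1-KO brains, with a log2 fold change of -0.40 ± 0.18 (SE, adjusted p = 0.163 in edgeR). With the GC and length offset the sign turned, to a log2 fold change of 0.18 ± 0.11 (SE, adjusted p = 0.361 in edgeR), and the genotypes overlapped. Without Bahd1-KO replicate 2 and without the offset it was -0.25 (adjusted p = 0.262 in edgeR). The longest Nr3c1 transcript has a GC content of 42.2%, the lowest of the 9 genes.

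The mineralocorticoid receptor Nr3c2 (ENSMUSG00000031618, chromosome 8, 76899442 to 77245012, plus strand) was at 61.2, 66.3 and 61.8 CPM in the Bahd1-WT and at 55.7, 43.9 and 64.4 CPM in the Bahd1-KO libraries. Bahd1-KO replicate 2 was again the lowest, while replicate 3 lay among the Bahd1-WT values. The log2 fold change was -0.21 ± 0.18 (SE, adjusted p = 0.428 in edgeR) and with the offset 0.07 ± 0.10 (SE), and it was -0.07 without Bahd1-KO replicate 2. Gm10649, a noncoding gene on the opposite strand, shares exon positions with Nr3c2, and the study counted reads by strand. No other gene of the 9 shares exon positions with another gene of the annotation. Per length, the Nr3c2 to Nr3c1 ratio was 0.512 ± 0.048 for Bahd1-WT brains and 0.587 ± 0.044 for Bahd1-KO brains (SD, n = 3 each), and the ratios overlapped (exact two-sided permutation p = 0.2, where 0.1 is the smallest that 3 against 3 mice allow).

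Of the estrogen receptors, Esr1 was lower and Esr2 higher in all 3 Bahd1-KO libraries, neither past the test. Only the Esr2 difference kept its size with the offset, but the offset could move Esr2 little. Expressed genes of like GC content had a median log2 fold change of 0.06 for Esr2 and -0.33 for Esr1. The offset was also fitted on genes of a higher level than Esr2. Esr1 (ENSMUSG00000019768, chromosome 10, 4611593 to 5005614, plus strand), estrogen receptor alpha, was at 6.02, 7.11 and 6.52 CPM in the Bahd1-WT and at 5.95, 3.36 and 5.13 CPM in the Bahd1-KO libraries. The groups did not overlap, but Bahd1-KO replicate 1 lay just under the lowest Bahd1-WT library. Its log2 fold change was -0.45 ± 0.25 (SE, adjusted p = 0.243 in edgeR), and it was 0.00 ± 0.16 (SE) with the offset. Without Bahd1-KO replicate 2 it was -0.25 (adjusted p = 0.467 in edgeR).

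Estrogen receptor beta, Esr2 (ENSMUSG00000021055, chromosome 12, 76120419 to 76177259, minus strand), had 13, 15 and 16 counts in the Bahd1-WT and 14, 45 and 22 counts in the Bahd1-KO libraries. Scaled to library size these were 0.142, 0.243 and 0.218 CPM against 0.322, 0.473 and 0.380 CPM, with all 3 Bahd1-KO values above all 3 Bahd1-WT values. On the log2 scale the fold change was 0.99 ± 0.35 (SE, unadjusted p = 0.0198, adjusted p = 0.101 in edgeR). With the GC and length offset it was 1.00 ± 0.34 (SE, unadjusted p = 0.0160, adjusted p = 0.126), close to the value without it. At this depth the exact Poisson 95% intervals of single libraries, which cover counting error only, were wide. Those of Bahd1-WT replicate 2 (0.136 to 0.401 CPM) and Bahd1-KO replicate 1 (0.176 to 0.540 CPM), the nearest libraries, overlapped, and those of Bahd1-WT replicate 1 (0.0756 to 0.243 CPM) and Bahd1-KO replicate 2 (0.345 to 0.632 CPM), the farthest apart, did not.

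Per length of all exons, Esr1 was the more abundant estrogen receptor in every library. The ratio of Esr1 to Esr2 on that scale was 10.4, 7.22 and 7.37 in Bahd1-WT and 4.56, 1.75 and 3.33 in Bahd1-KO replicates 1, 2 and 3. The mean was 8.34 ± 1.83 (SD, n = 3) in Bahd1-WT and 3.21 ± 1.41 (n = 3) in Bahd1-KO brains, a log2 difference of -1.46, or -0.99 with the offset, and the genotypes did not overlap in either case (exact two-sided permutation p = 0.1, the smallest possible, and 0.35 after adjustment over the 7 ratios computed). The size of the ratio, though not its change between genotypes, depends on the length used, since all exons of Esr1 span 13661 bases and its longest transcript 6339. Per kilobase of the longest transcript the mean level of Esr1 was 1.03 in Bahd1-WT and 0.759 in Bahd1-KO brains, and that of Esr2 was 0.0598 and 0.116. The ratios were chosen after the levels had been seen.

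Pgr (ENSMUSG00000031870, chromosome 9, 8899833 to 8968611, plus strand), the progesterone receptor, which estrogen receptors induce in parts of the brain, was at 35.2, 38.0 and 44.4 CPM in the Bahd1-WT and at 30.2, 18.1 and 30.9 CPM in the Bahd1-KO libraries. The groups did not overlap, and Bahd1-KO replicate 2 was far below the other two. Among the 9 genes it had the most negative log2 fold change, -0.57 ± 0.23 (SE, unadjusted p = 0.0373, adjusted p = 0.135 in edgeR). Without Bahd1-KO replicate 2 it was -0.36 (adjusted p = 0.199 in edgeR). With the offset the log2 fold change was -0.21 ± 0.14 (SE, unadjusted p = 0.167), and the genotypes overlapped. The summed hypothalamus markers were at 41.7 to 66.1 CPM in Bahd1-WT and 34.8 to 56.9 CPM in Bahd1-KO libraries, a sum made up mostly of Pmch and Trh. Of the 9 markers 2 were higher and 2 lower in all Bahd1-KO libraries, and 5 overlapped. Their part in the Esr1, Esr2 and Pgr levels was not tested.

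Of the genes induced by the glucocorticoid receptor, Fkbp5, Sgk1 and Tsc22d3 had overlapping levels in the 2 genotypes, with log2 fold changes between -0.17 and -0.03. These values rested in part on single Bahd1-WT libraries. Without Bahd1-WT replicate 3 they were -0.35 for Fkbp5, -0.20 for Sgk1 and -0.20 for Tsc22d3, with adjusted p-values of 0.364 to 0.543 in edgeR. Without Bahd1-WT replicate 2 they were -0.05 for Fkbp5, 0.14 for Sgk1 and 0.02 for Tsc22d3. Fkbp5 (ENSMUSG00000024222, chromosome 17, 28399094 to 28517527, minus strand), an Hsp90 co-chaperone that dampens the receptor, was at 92.6, 96.1 and 60.8 CPM in the Bahd1-WT and at 93.4, 60.1 and 68.9 CPM in the Bahd1-KO libraries. Both groups held high and low libraries. That is a log2 fold change of -0.17 (95% interval -0.70 to 0.36, adjusted p = 0.636 in edgeR) and -0.19 with the offset, and without the offset -0.04 when Bahd1-KO replicate 2 was left out.

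Sgk1 (ENSMUSG00000019970, chromosome 10, 21882184 to 21999903, plus strand), a kinase that acts on ion channels and transporters, was at 211, 259 and 160.1 CPM in the Bahd1-WT and at 208, 207 and 201 CPM in the Bahd1-KO libraries. All 3 Bahd1-KO values lay inside the range of the Bahd1-WT values. The log2 fold change was -0.03 (95% interval -0.46 to 0.40, adjusted p = 0.919 in edgeR) and 0.18 with the offset. Oligodendrocytes also express Sgk1, and their 8 summed markers were at 5175 to 5964 CPM in Bahd1-WT and 5398 to 8337 CPM in Bahd1-KO libraries. Mbp, Mag and Cnp were higher in all Bahd1-KO libraries and the 5 others overlapped. Their part in the Sgk1 level was not tested.

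Tsc22d3 (ENSMUSG00000031431, chromosome X, 140539528 to 140600659, minus strand), which encodes the glucocorticoid-induced leucine zipper protein, was at 169, 184 and 135 CPM in the Bahd1-WT and at 178, 144 and 141 CPM in the Bahd1-KO libraries. Again the Bahd1-KO values lay inside the Bahd1-WT range. The log2 fold change was -0.07 (95% interval -0.48 to 0.33, adjusted p = 0.793 in edgeR) and 0.15 with the offset. These intervals bound the change of each gene and do not show that the levels were equal.

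Within the Bahd1-WT group these 3 genes had their lowest level in the same mouse. Replicate 3 was the lowest of the 3 Bahd1-WT libraries for all 3 of them and for 18 of the 20 other glucocorticoid-induced genes listed, with the same counts after the offset. Among all 14706 genes with a mean of at least 1 CPM, 27.8% were lowest in that library, or 30.3% after the offset. The highest Bahd1-WT level of a listed gene was a median of 1.56 times the lowest, against 1.22 times over all those genes. The cell cycle inhibitor Cdkn1a, at 58.8, 71.4 and 22.1 CPM in Bahd1-WT replicates 1, 2 and 3, showed the widest such gap of the list, and Dusp1 and Mt1 were the listed genes that were not lowest in replicate 3. This pattern, with the genes named for it, was noticed in the data and is a description with no test. Lung markers also differed among these mice, with sums of 135, 30.3 and 3.03 CPM in Bahd1-WT replicates 1, 2 and 3 and 0.850 to 2.06 CPM in the Bahd1-KO libraries, and their part in the pattern was not tested.

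**Figure D2:**
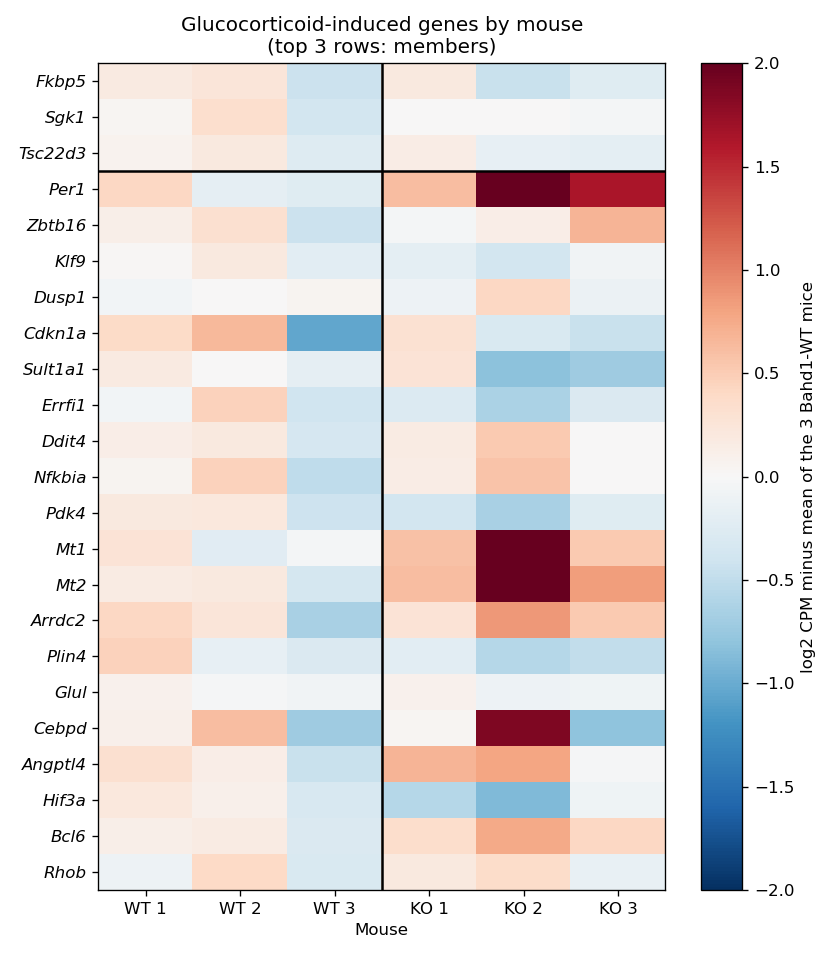
Heat map of log2 CPM minus the mean of the 3 Bahd1-WT mice (color) for Fkbp5, Sgk1, Tsc22d3 and the 20 listed glucocorticoid-induced genes (rows) in the 6 mice (columns). Replicate 3 of Bahd1-WT is the lowest of its group in 3 of the top 3 rows and 18 of the 20 rows under them, while Per1, Mt1 and Mt2 reach their highest values in Bahd1-KO replicate 2.

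Within the list of 20 other glucocorticoid-induced genes, all tested, 0 passed at an adjusted p-value under 0.05 in edgeR's quasi-likelihood test, and the median log2 fold change was 0.17, against -0.06 over all genes. DESeq2 called 16 of the 79 tested genes of all 6 pathway lists, where it called 17.2% of all genes. In edgeR's test 4 of the 20 were higher in Bahd1-KO brains at an unadjusted p-value under 0.05 and 0 lower, beside 19.9% higher and 12% lower over all genes: the clock gene Per1, the metallothioneins Mt1 and Mt2 and the repressor gene Bcl6. Per1 had the highest log2 fold change, 1.69 ± 0.41 (SE, adjusted p = 0.0634), and 0.48 with the offset. Hif3a had the lowest, -0.50 ± 0.25 (SE, adjusted p = 0.199), and -0.60 with the offset, and Glul, the glutamine synthetase gene of astrocytes and the most abundant of the list, was at 2212 ± 117 CPM in Bahd1-WT and 2163 ± 159 CPM in Bahd1-KO brains (SD, n = 3 each). With the offset, 3 of the 20 were higher and 5 lower at an unadjusted p-value under 0.05, beside 17.1% higher and 5.64% lower over all genes, and the median was -0.11, so that the sign of the list's median depended on the offset.

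Crhr1 (ENSMUSG00000018634, chromosome 11, 104132855 to 104175523, plus strand), the main receptor for corticotropin-releasing hormone in the brain, had the highest fold change of the 9 genes, and that fold change was close to 0 once the offset was used. It was at 9.58, 6.90 and 8.09 CPM in Bahd1-WT replicates 1, 2 and 3 and at 10.8, 26.7 and 15.2 CPM in Bahd1-KO replicates 1, 2 and 3. Every Bahd1-KO library lay above every Bahd1-WT library, narrowly in replicate 1 and by far in replicate 2. The mean was 8.19 ± 1.35 CPM (SD, n = 3) in Bahd1-WT and 17.5 ± 8.20 CPM (n = 3) in Bahd1-KO brains, with a log2 fold change of 1.10 ± 0.33 (SE, unadjusted p = 0.00878, adjusted p = 0.0727 in edgeR). DESeq2's Wald test called it (adjusted p = 0.00948 with the prior on fold changes), as it did 17.2% of all genes. In edgeR it was called with no filter beyond 1 count (adjusted p = 0.0239), where 11% of genes were called, and without Bahd1-KO replicate 1 (adjusted p = 0.00802), where 30% of genes were called. Without Bahd1-KO replicate 2 its log2 fold change was 0.67 (adjusted p = 0.106 in edgeR), and in the 4 other fits without 1 mouse the adjusted p was 0.128 to 0.252.

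The longest Crhr1 transcript has a GC content of 58.2%, the highest of the 9 genes. Ordered by Crhr1 level, the libraries stood as Bahd1-WT replicates 2, 3 and 1 and Bahd1-KO replicates 1, 3 and 2, which is also their order by GC lean. With the GC and length offset, Crhr1 was at 11.9, 10.8 and 11.3 CPM in the Bahd1-WT and at 10.7 to 12.4 CPM in the Bahd1-KO libraries. Its log2 fold change was then 0.05 (95% interval -0.24 to 0.33, adjusted p = 0.868 in edgeR). Crhr1 is also expressed in the pituitary, whose 8 markers summed to 19.1, 0.599 and 0.205 CPM in Bahd1-WT replicates 1, 2 and 3 and to 0.184, 4.08 and 42.6 CPM in Bahd1-KO replicates 1, 2 and 3. In Bahd1-KO replicate 1, where 4 of these 8 markers were at 0 counts, Crhr1 was at 10.8 CPM, and in Bahd1-KO replicate 3, with the highest sum, it was at 15.2 CPM. Their part in the Crhr1 level was not tested.

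**Figure D3:**
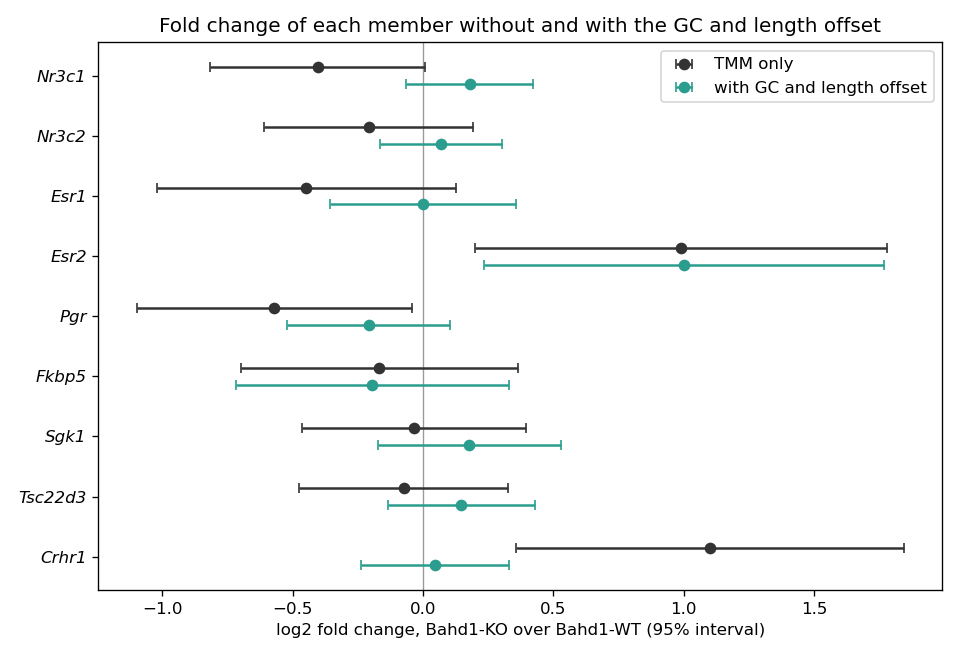
Log2 fold change (x axis, Bahd1-KO over Bahd1-WT, with its 95% interval) of each of the 9 genes from edgeR's test without (black) and with (green) the GC and length offset. Crhr1 moves from 1.10 to 0.05, Nr3c1 from -0.40 to 0.18, and Esr2 stays near 1.

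Over all expressed genes the fold change went with GC content, and the 9 genes can be set beside that relation. In 10 groups of 13430 expressed genes (a mean of at least 2 CPM), ordered by the GC content of the longest transcript, the median log2 fold change went from -0.55 in the first group to 1.45 in the last. All of the 9 genes but Esr2, which was below that level, could be placed, and 5 of these 8 lay within the interquartile range of their own GC group, a range that by construction holds the central part of each group. Nr3c1, at -0.40, stood beside a group median of -0.43, and Crhr1, at 1.10, beside a group range of 0.99 to 1.94. The exceptions all lay below their group's lower quartile: Pgr at -0.57 against -0.36, Fkbp5 at -0.17 against 0.07, and Esr1 at -0.45 against -0.44. Esr2 had a GC content of 50.9% and a log2 fold change of 0.99, where the expressed genes of like GC content had a median of 0.06.

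**Figure D4:**
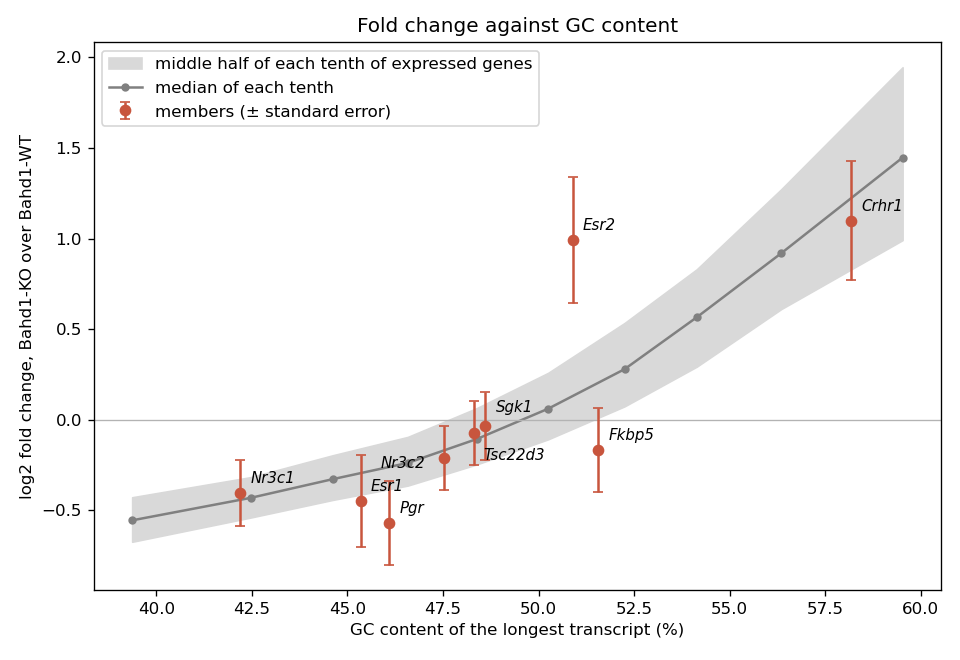
Log2 fold change (y axis) against the GC content of the longest transcript (x axis, %) for the 9 genes (red, with standard error), over the median (line) and interquartile range (band) of 10 groups of expressed genes. From Nr3c1 at 42.2% GC to Crhr1 at 58.2%, 5 of the genes lie within their group's range. Fkbp5, Pgr and narrowly Esr1 lie below the band. Esr2 lies above the band but was below the level of the genes that form it.

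Compared per length of all exons, as RPKM computed here, the levels in Bahd1-WT brains ran from Sgk1 (42.9 ± 10.1 RPKM, SD, n = 3) and Tsc22d3 (37.5 ± 5.86) through Nr3c1 (19.1 ± 1.25), Nr3c2 (9.75 ± 0.43), Fkbp5 (8.79 ± 2.05), Pgr (4.59 ± 0.55) and Crhr1 (3.33 ± 0.55) to Esr1 (0.479 ± 0.040) and Esr2 (0.0597 ± 0.016). Neighbors in this order overlapped over the 3 mice in the case of Sgk1 and Tsc22d3 and of Nr3c2 and Fkbp5, and not in the others. In Bahd1-KO brains the order was the same, with the same overlaps, from Sgk1 at 41.9 ± 0.71 RPKM to Esr2 at 0.116 ± 0.023 RPKM, except that Crhr1 (7.13 ± 3.33) stood above Pgr (3.09 ± 0.84), without overlap, and overlapped Fkbp5 (7.83 ± 1.83). With the offset this exchange was not seen: the mean of Crhr1 was above that of Pgr in both genotypes, with values of 4.40 to 4.85 against 3.71 to 4.57 RPKM in Bahd1-WT, which overlapped, and of 4.36 to 5.04 against 2.91 to 3.82 RPKM in Bahd1-KO, which did not. The offset means of Fkbp5 and Nr3c2 were 8.94 and 8.82 RPKM in Bahd1-WT and 7.82 and 9.25 RPKM in Bahd1-KO. These genes thus changed places, with overlapping values in both genotypes. Per length of the longest transcript in place of all exons, Fkbp5 was at 21.6 in Bahd1-WT, above Nr3c2 at 10.7 and close to Nr3c1 at 22.8, so that the rank of Fkbp5 depends on which length is used.

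Of the other receptors and membrane proteins that bind steroids, 9 genes, 0 passed the test, and 4 were higher and 1 lower at an unadjusted p-value under 0.05 in edgeR's test, beside 19.9% higher and 12% lower over all genes, and the median log2 fold change was -0.17, or 0.22 with the offset. The 4 higher ones were Esrra, Esrrb, Gper1 and Paqr7. Esrra, an orphan receptor that controls genes of mitochondrial metabolism and binds no estrogen, had 298, 84 and 76 counts in the Bahd1-WT and 288, 3943 and 882 in the Bahd1-KO replicates 1, 2 and 3. In CPM all 3 Bahd1-KO libraries were above the Bahd1-WT libraries, from 6.62 to 41.4 against 1.04 to 3.26. Its log2 fold change was 3.48 ± 0.70 (SE, adjusted p = 0.0634 in edgeR) and 3.55 (adjusted p = 0.0739) with the offset, and like Esr2 it kept its size with the offset at a moderate GC content of 50.3%. Pgrmc1, the most abundant of the list, was at 384 ± 37.8 CPM in Bahd1-WT and 290.1 ± 90.2 CPM in Bahd1-KO brains (SD, n = 3 each), and the genotypes overlapped.

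Among 12 chaperones and co-chaperones that hold steroid receptors, 0 passed the test, and 4 were higher and 0 lower at an unadjusted p-value under 0.05 in edgeR's test, where 19.9% of all genes were higher and 12% lower. The median log2 fold change was 0.29, against -0.06 over all genes, and 0.17 with the offset, against 0.09. With the offset 5 were higher and 1 lower (Bag1, log2 fold change -0.71) at an unadjusted p-value under 0.05 in edgeR's test. Over all genes 17.1% were higher and 5.64% lower in that fit. Hsp90ab1, the constitutive Hsp90 and the most abundant of them, was at 1338 ± 112 CPM in Bahd1-WT and 1686 ± 162 CPM in Bahd1-KO brains without overlap (SD, n = 3 each). Its log2 fold change was 0.33 ± 0.15 (SE, adjusted p = 0.171) and with the offset 0.32 (unadjusted p = 0.00666, adjusted p = 0.0929 in edgeR). Stub1, a ubiquitin ligase that acts with Hsp90, had the highest log2 fold change, 1.45 ± 0.37 (SE, adjusted p = 0.0638), which was 0.09 with the offset. Ppid had the lowest, -0.50 ± 0.25 (SE, adjusted p = 0.203), and its sign turned with the offset, to 0.08. Fkbp4, the co-chaperone that favors movement of the receptor to the nucleus and is often set against Fkbp5, was at 73.5, 56.1 and 74.5 CPM in Bahd1-WT and at 103, 205 and 113 CPM in Bahd1-KO libraries. It had a log2 fold change of 1.04 (adjusted p = 0.0641 in edgeR) and 0.36 with the offset, and was named after its values were seen.

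The 12 other genes of the corticotropin-releasing hormone system and the pituitary-adrenal axis were all tested, and 0 passed, with 3 higher (19.9% over all genes) and 0 lower (12% over all genes) at an unadjusted p-value under 0.05 in edgeR's test and a median log2 fold change of 0.40, or 0.26 with the offset. The hormone gene Crh itself overlapped between genotypes, at 4.76, 6.14 and 4.87 CPM in Bahd1-WT and 8.89, 5.67 and 3.64 CPM in Bahd1-KO libraries. The 3 higher genes were Crhr2, Avp and Ucn. Avp, the vasopressin gene, had a log2 fold change of 2.25 (adjusted p = 0.0926 in edgeR) at a GC content of 65.7%, and of 0.07 with the offset, where the genotypes overlapped. Ucn, which encodes the Crhr1 and Crhr2 ligand urocortin, had 0, 2 and 0 counts in the Bahd1-WT and 2, 92 and 8 in the Bahd1-KO replicates 1, 2 and 3, so that most of its reads came from a single library, and the genotypes overlapped with the offset. Crhr2, the second receptor of the system, was at 0.874, 0.696 and 0.954 CPM in Bahd1-WT and 1.49, 2.88 and 1.73 CPM in Bahd1-KO libraries, a log2 fold change of 1.28 (adjusted p = 0.0634 in edgeR) and 0.64 with the offset. The choroid plexus expresses Crhr2, and its 8 summed markers were at 299.8 to 394 CPM in Bahd1-WT and 478 to 1099 CPM in Bahd1-KO libraries. Most of that sum was Ttr, at 213 to 309 CPM in Bahd1-WT and 402 to 1018 CPM in Bahd1-KO libraries. Of the other markers Kl was lower in all Bahd1-KO libraries, at 25.4 to 27.5 CPM against 32.5 to 38.4 CPM, and 6 overlapped, and the list's median log2 fold change was -0.09. Their part in the Crhr2 level was not tested. Adcyap1r1, the most abundant of the list, had a log2 fold change of -0.01 ± 0.15 (SE), and -0.16 with the offset. Avpr1b, at 4 to 13 counts per library, had the lowest of the list, -0.76, or -0.77 with the offset. Crh, Crhr2 and Avp were named after their values were seen.

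The gene with the pattern most like that of each of the 9 genes over the 6 libraries was found by the root mean square difference of log2 CPM centered on the gene's mean, among genes with a mean of at least 1 CPM. The closest partners were Cep170 for Nr3c1 (0.031), Cntnap2 for Nr3c2 (0.039), Wee1 for Esr1 (0.026), Chl1 for Pgr (0.056) and Zfp777 for Crhr1 (0.032). For the glucocorticoid-induced genes they were 2010015M23Rik for Fkbp5 (0.079), Nod2 for Sgk1 (0.050) and 2700046A07Rik for Tsc22d3 (0.025). Ifngr2 was closest to Esr2 (0.037), where the pseudocount of 0.5 compresses the differences of so low a gene. With 6 libraries and so many candidate genes, these partners are a description and carry no test.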

How the data were processed

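Gene-level read counts from 1 brain hemisphere of each of 3 Bahd1-WT and 3 Bahd1-KO mice were used, grouped by the genotype in the sample labels. The authors deposited these as whole-number counts per gene without normalization. Per the methods and the submitters' processing notes, reads were trimmed with cutadapt 1.11, aligned to GRCm38 with STAR 2.5.0a and counted by strand on exons with featureCounts 1.4.6-p3. The methods also describe sequencing in technical replicates, and the table holds 1 column per mouse and 0 columns of other series. The embryonic brains were not analysed here.

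Genes totalling 10 counts or more were tested with edgeR 4.0.16 in R 4.3.3 (TMM normalization, quasi-likelihood fit, genotype as the only factor, Benjamini-Hochberg adjustment over all 23975 genes, calls at 0.05). CPM and RPKM were computed from TMM-scaled library sizes. For the offset, log2 CPM in each library was modelled by natural splines of GC content (5 degrees of freedom) and of log length (3) over 13283 genes, with lengths, GC content and positions from GENCODE M21. An offset of this kind takes out any difference between libraries that follows GC content or length, whatever its source. Alternatives were other scalings, DESeq2 1.42.0 with and without its prior, other filters, each mouse left out, the replicate number as a block, and the offset. Labels number the mice of each genotype 1 to 3. Scripts were tested on simulated counts.

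The 9 genes and the lists of related and marker genes were chosen with earlier results of these data known. From each pathway list the genes with the highest and lowest fold change and the highest level were named, beside any gene called. Genes named for an unadjusted p-value under 0.05 were added after their values were seen. Results that the naming rule would have added for 2 genes are not reported here. Sts was not in the table used here, and Hsd3b2 and Hsd3b6 were below the filter. Mice of one genotype are separate animals. Count intervals and the 3-count floor hold counting error alone.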

Additional observations from a re-analysis of the deposited data

How the results depend on the processing

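The count of receptor and stress genes called (0 of 9) rose to 1, always Crhr1, under 4 alternatives: DESeq2 with the normal prior (1) and without a prior (1), no filter beyond 1 count (1, adjusted p = 0.0239 from edgeR, where 11% of genes were called), and Bahd1-KO replicate 1 left out (1, adjusted p = 0.00802 from edgeR, where 30% of genes were called). Over the 6 fits that left out 1 mouse each, it was 0 to 1. Of the genes in the 6 pathway lists, 0 were called, against 11 with total counts alone (2253 of all 23975 genes called), 16 with DESeq2 with the prior and 16 without it (17.2% of all genes in each), 15 with no filter (11%), and 0 to 26 when 1 mouse was left out, with 26 reached without Bahd1-KO replicate 1 (30%). The log2 fold change of Crhr1 was 0.67 to 1.39 over the fits that left out 1 mouse each, that of Esr2 0.78 to 1.14, that of Pgr -0.70 to -0.36, that of Esr1 -0.60 to -0.25, that of Nr3c1 -0.49 to -0.25, that of Nr3c2 -0.34 to -0.07, that of Fkbp5 -0.35 to -0.04, that of Sgk1 -0.20 to 0.14 and that of Tsc22d3 -0.20 to 0.02.

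Signs turned in some fits of genes that were not called. With the GC and length offset, Nr3c1 was at 0.18, Nr3c2 at 0.068, Esr1 at 0.0013, Sgk1 at 0.18 and Tsc22d3 at 0.15, and with the offset and the replicate block Nr3c1 was at 0.18, Nr3c2 at 0.062, Sgk1 at 0.20 and Tsc22d3 at 0.16. With total counts alone Sgk1 was at 0.047 and Tsc22d3 at 0.0050, and without Bahd1-WT replicate 2 Sgk1 was at 0.14 and Tsc22d3 at 0.023. The sign of Pgr, Fkbp5, Esr2 and Crhr1 did not turn in any alternative run. Upper-quartile factors moved the median of all genes from -0.06 to -0.20.

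In edgeR's fit with a replicate block, called genes numbered 0 of the 9, 0 of the pathway lists and 7 of all genes, and the lowest adjusted p of the 9 was 0.167. The deviations of same-numbered mice from their genotype means correlated at -0.64, -0.66 and -0.14. Those of differently numbered mice correlated at -0.09 to 0.63. Within so small a group the deviations are not independent, so these values cannot show whether same-numbered mice shared more than a number.

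Groups of 3 mice are too small for a test of outlying samples, and at 13 to 45 counts depth limits the level of Esr2.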

Other observations

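Coregulators are proteins that steroid receptors recruit to switch genes on or off. Of 12 such genes, 0 passed edgeR's quasi-likelihood test at an adjusted p-value under 0.05 and 2, among them the chromatin remodeler gene Smarca4, had an unadjusted p-value under 0.05, both with higher levels in Bahd1-KO brains, beside 19.9% of all genes. The corepressor gene Ncor1, the most abundant of the list, was at 246 ± 17.4 CPM in Bahd1-WT and 211 ± 28.9 CPM in Bahd1-KO brains (SD, n = 3 each), and the genotypes overlapped. Nrip1 had the lowest log2 fold change, -0.37 ± 0.20 (SE, adjusted p = 0.234), and 0.17 with the offset. The list's median log2 fold change was -0.07, or 0.14 with the offset.

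Of 17 genes of steroid synthesis and breakdown, 14 were tested and 0 passed, with 2 higher (Cyp11a1 and Tspo) and 2 lower (Cyp7b1 and Akr1c14) at an unadjusted p-value under 0.05 in edgeR's test, beside 19.9% higher and 12% lower over all genes, and a median log2 fold change of 0.20. With the offset 3 were higher and 0 lower at an unadjusted p-value under 0.05, beside 17.1% higher and 5.64% lower over all genes, and the median was 0.30. Cyp7b1 went from -0.63 to -0.12 with the offset. Akr1c14, whose enzyme reduces progesterone metabolites to neurosteroids, was at 3.09, 2.82 and 3.05 CPM in Bahd1-WT and 1.68, 1.27 and 1.49 CPM in Bahd1-KO libraries, without overlap. Its log2 fold change was -1.02 ± 0.22 (SE, adjusted p = 0.0634 in edgeR) and -0.27 with the offset, and its GC content of 38.4% is among the lowest of the listed genes. Tspo, a protein of the outer mitochondrial membrane, had 62, 24 and 29 counts in the Bahd1-WT and 42, 346 and 69 in the Bahd1-KO libraries, a log2 fold change of 1.99 ± 0.52 (SE, adjusted p = 0.0643) and of 0.68 with the offset. Hsd17b4, the most abundant, was at 62.7 ± 4.89 CPM in Bahd1-WT and 71.6 ± 2.19 CPM in Bahd1-KO brains (SD, n = 3 each) without overlap, with a log2 fold change of 0.19 (adjusted p = 0.368 in edgeR) and 0.36 (adjusted p = 0.102) with the offset.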
